A study of Mus musculus with 14 samples.

Results

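The BCL2 family genes decide, at the mitochondrion, whether a cell survives or enters apoptosis. The 10 genes described here were chosen by symbol (Bcl2, Bcl2l1, Mcl1, Bax, Bak1, Bcl2l11, Bbc3, Pmaip1, Bid and Bmf), and all 10 were found among the 24537 genes of the deposited tables. RNA was measured in 2 sorted mouse cell populations. Skin regulatory T (Treg) cells came from 5 GR KO and 3 GR WT samples taken 1 day after hair depilation, and hair follicle stem cells (HFSC, gated as CD34+ and ITGA6high) from 3 GR KO and 3 GR WT samples taken 4 days after it. GR KO mice carried Foxp3YFP-Cre and GRfl/fl, so that Cre made under the Foxp3 promoter, which is active in Treg cells, removes the floxed glucocorticoid receptor gene there. GR WT mice are given only as wild type, so the labels do not say that they carried the Cre. HFSC from GR KO mice are therefore cells whose own receptor gene is not the target of the Cre. The sources used here give no ages, sexes or pooling of mice.

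Values are TPM, tag counts scaled by transcript length and library size, so that levels can be set side by side between genes. Each level rests on the length of 1 transcript a gene. Per library the listed values summed to 649917 to 668742 in Treg cells and 639752 to 645251 in HFSC, short of the total that TPM implies. The libraries held 9.17 to 14.5 M tags in Treg cells and 4.5 to 7.99 M in HFSC. Nr3c1, the receptor gene, was at 106, 125, 106, 171 and 139 TPM in the Treg GR KO libraries, against 171, 233 and 230 TPM in the Treg GR WT libraries (limma log2 difference -0.71, adjusted p = 0.0722). In HFSC it was at 48.5, 35.7 and 46.7 TPM in GR KO and 41.1, 48.9 and 34.8 TPM in GR WT. A gene-level value does not resolve the deleted exons. Of the libraries, HFSC GR WT replicate 1, also the shallowest, stood apart on the first principal component (59.8, against -17.7 to -4.02 for the other 5), and Treg GR WT replicate 3 lay farthest out among Treg libraries (52.1, against -24.5 to 22.9). Markers of other cells differed between genotypes. In Treg cells, the summed level of 10 basal keratinocyte markers was 28.4 to 114 TPM in GR KO and 350 to 590 TPM in GR WT. That of 11 macrophage and monocyte markers was 65.2 to 178 TPM in GR KO and 213 to 382 TPM in GR WT. That of 9 neutrophil markers was 23.7 to 54.1 TPM in GR KO and 98.2 to 350 TPM in GR WT. Lower in GR KO at a limma adjusted p under 0.05 were 7 of 9, 5 of 11 and 2 of 5 tested markers in that order, beside 1.31% of all genes. None of these 3 lists held a marker at 0 in every Treg library. In HFSC, 8 sebocyte markers summed to 6288 to 8101 TPM in GR KO and 2794 to 4531 TPM in GR WT, and 10 bulge stem cell markers to 14325 to 17473 TPM in GR KO and 18763 to 23721 TPM in GR WT, with 0 of 8 and 0 of 10 passing the test. The 9 Treg identity markers summed to 7474 to 10766 TPM in Treg GR KO and 9383 to 10653 TPM in Treg GR WT libraries, and to 83.1 to 120 TPM in HFSC libraries. The part of these marker differences in the results below was not tested.

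The family falls into 3 functional classes. BCL2, BCL-XL (from Bcl2l1) and MCL1 keep the outer mitochondrial membrane closed. BAX and BAK (from Bak1), once activated, open pores in it, and the cytochrome c that escapes starts the caspase cascade. The BH3-only proteins BIM (from Bcl2l11), PUMA (from Bbc3), NOXA (from Pmaip1), BID and BMF pass on stress and death signals by occupying the survival proteins or by activating BAX and BAK. In lymphocytes, glucocorticoids are a classical trigger of apoptosis that works in part through BIM and PUMA, and interleukin 2 and interleukin 7 sustain BCL2 and MCL1. Forkhead factors of the FOXO class are known activators of Bcl2l11 and Bbc3. These statements concern proteins and earlier work, whereas only RNA was measured here.

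The start regions of the genes were searched for elements of these regulators, because BIM and PUMA are the members most often tied to glucocorticoid-induced death. RefSeq start windows (GRCm38.p6, 250 bases before to 50 bases after a start) were held for 9 of the 10 genes, 16 windows in all, with none for Pmaip1. On both strands, 5 motifs were searched: the glucocorticoid receptor element TGTTCT in its single form, the full receptor element, which is an inverted repeat of that form around 3 bases of any kind, the FOXO element TGTTTAC, the STAT element TTCNNNGAA and the cyclic AMP element TGACGTCA. A full receptor element also holds the single form. The FOXO element was found once each in a window of Bcl2l11 and in a window of Bbc3, and the other 4 motifs matched in none of the 16 windows. Among all 32851 windows of the same length, 3.65% held the FOXO element, 19.0% the single receptor element, 0.009% the full one, 8.3% the STAT element and 1.79% the cyclic AMP element. A match is a description of letters and not a bound site, and a missing match says only that these letters are not in the window. Both windows are shown 5′ to 3′ on the gene's + strand, with the FOXO match in capitals. That of Bcl2l11 lies at chr2:128125788-128126087, its match beginning at base -227 from the start, and that of Bbc3, the second of its 3 windows, at chr7:16310011-16310310, its match beginning at base -167.
Bcl2l11: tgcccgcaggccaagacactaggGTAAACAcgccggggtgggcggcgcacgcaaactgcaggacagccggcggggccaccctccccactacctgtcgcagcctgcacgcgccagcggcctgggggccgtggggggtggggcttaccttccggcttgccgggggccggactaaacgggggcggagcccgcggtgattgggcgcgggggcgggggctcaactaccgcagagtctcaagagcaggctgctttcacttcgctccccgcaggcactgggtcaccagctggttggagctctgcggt
Bbc3: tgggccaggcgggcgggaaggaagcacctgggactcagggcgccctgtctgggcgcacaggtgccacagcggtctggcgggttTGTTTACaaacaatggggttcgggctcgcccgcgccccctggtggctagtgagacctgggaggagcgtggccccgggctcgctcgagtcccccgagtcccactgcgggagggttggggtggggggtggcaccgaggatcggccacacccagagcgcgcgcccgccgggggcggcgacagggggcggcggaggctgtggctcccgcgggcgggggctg

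The levels of the 10 genes ordered them much the same way in both genotypes of a cell type. Mcl1 was the highest member in all 4 groups. Its mean and SD were 254 ± 27.5 TPM in the 5 Treg GR KO libraries, 270 ± 22.5 TPM in the 3 Treg GR WT libraries, 146 ± 9.26 TPM in the 3 HFSC GR KO libraries and 138 ± 15.2 TPM in the 3 HFSC GR WT libraries. In Treg GR KO libraries, Bcl2l1 (207 ± 38.3 TPM) and Bax (192 ± 16.6 TPM) followed, and the library ranges of Mcl1 and Bcl2l1, and of Bcl2l1 and Bax, overlapped. Pmaip1 (102 ± 17.5 TPM) was next and stood apart from its neighbours on both sides. Bid (28 ± 3.51 TPM) and Bak1 (26 ± 4.12 TPM) overlapped, as did Bbc3 (18.2 ± 2.45 TPM) and Bcl2l11 (13.0 ± 2.58 TPM), and Bmf (4.65 ± 1.78 TPM) and Bcl2 (3.16 ± 1.44 TPM) came last with overlapping ranges. The order in Treg GR WT libraries differed only by exchanges between neighbours whose ranges overlapped in at least 1 of the genotypes. Bcl2, the founding survival gene, was thus among the lowest members in Treg cells, where the other survival members, Mcl1 and Bcl2l1, were among the top 3.

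In HFSC GR KO libraries the order was Mcl1, Bax (53.0 ± 8.40 TPM), Bcl2l1 (30.9 ± 1.21 TPM), Bak1 (22.1 ± 3.15 TPM), Bbc3 (17.4 ± 3.47 TPM), Bcl2 (7.80 ± 1.13 TPM), Bcl2l11 (7.70 ± 0.422 TPM), Pmaip1 (6.98 ± 2.62 TPM), Bid (4.99 ± 1.22 TPM) and Bmf (1.93 ± 0.358 TPM). The top 3 stood apart from each other and from Bak1, whereas Bak1 overlapped with Bbc3, and Bcl2, Bcl2l11, Pmaip1 and Bid formed a chain of overlapping neighbours. The first 6 genes and the last kept their places in HFSC GR WT libraries.

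**Figure D1:**
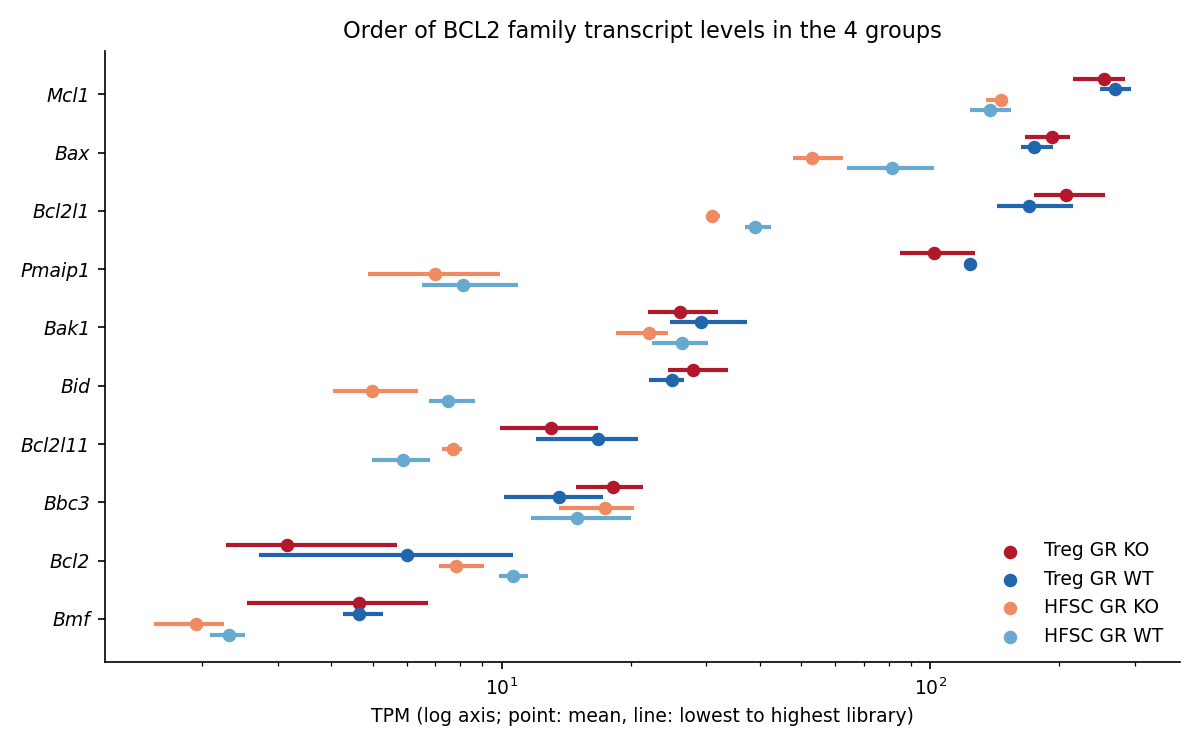
TPM (log axis) of each of the 10 genes in Treg GR KO, Treg GR WT, HFSC GR KO and HFSC GR WT libraries, from top to bottom, with points at the group means and lines from the lowest to the highest library. Mcl1 is highest in all 4 groups, and Pmaip1 lies at 85.2 to 127 TPM in Treg libraries and at 4.88 to 10.9 TPM in HFSC libraries.

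There were 7 genes higher in all 8 Treg libraries than in all 6 HFSC libraries. These levels are a description: the tables were normalised separately, cell type and day differ together, and no test was made across them. The share of all genes that lay apart in this way was not counted, so the count is not shown to be particular to these genes. NOXA's gene differed most, with Pmaip1 at 85.2 to 127 TPM in Treg and 4.88 to 10.9 TPM in HFSC libraries, a ratio of 15.3 between the GR WT means. Bcl2l1 lay at 143 to 256 TPM in Treg and 30.1 to 42.6 TPM in HFSC libraries (4.38-fold), Bid at 22.1 to 33.8 TPM and 4.03 to 8.66 TPM (3.31-fold), and Bcl2l11 at 9.93 to 20.8 TPM and 4.98 to 8.07 TPM (2.86-fold). Smaller ratios separated Bax (2.15-fold), Bmf (2.01-fold) and Mcl1 (1.96-fold). Libraries of both cell types overlapped for Bcl2 (2.27 to 10.6 TPM in Treg, 7.12 to 11.5 TPM in HFSC), Bak1 (22 to 37.3 TPM in Treg, 18.5 to 30.3 TPM in HFSC) and Bbc3 (10.1 to 21.4 TPM in Treg, 11.7 to 20.3 TPM in HFSC). Survival, pore and BH3-only genes were thus all among the 7, and 1 gene of each class was among the 3. With median ratio scaling over all 14 libraries the count stayed at 7, and the Treg over HFSC log2 ratio of Bbc3 turned from -0.15 to 0.32.

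Treg cells of GR KO and GR WT mice formed the first comparison, and none of the 10 genes passed the test. All 10 were above the filter of a mean of 1 TPM, and 0 of 10 had a limma adjusted p under 0.05 (adjusted over all 11579 genes tested), where 1.51% of all genes did. In limma voom on recovered tags it was 0 of 10, where 253 of all 11579 genes passed. At an unadjusted limma p under 0.05 there were 2 of 10, Bbc3 higher and Pmaip1 lower, against a background of 14.1% (5.15% higher, 8.93% lower). In none of the 10 did the GR KO libraries lie wholly above or below the GR WT libraries, which happened for 8.52% of all genes (3.42% above, 5.1% below). The median log2 difference was -0.07 over the 10 genes and -0.04 over all genes tested. Fold differences are of log2(TPM + 1), GR KO minus GR WT, which understates them for genes near 1 TPM. In bulk samples, fewer cells expressing a gene and less RNA per cell cannot be told apart.

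Among the survival genes in Treg cells, Bcl2 varied most. Bcl2 (NM_009741, chromosome 1, mm10) was at 2.83, 2.73, 2.27, 5.70 and 2.27 TPM in GR KO, against 4.70, 2.72 and 10.6 TPM in GR WT. In GR KO, replicate 4 stood above the other 4 libraries, which lay close together at the low end, and GR WT replicate 2 fell inside the low cluster while GR WT replicate 3 was the highest of all. The log2 difference was -0.65 with a standard error (SE) of 0.37 and a 95% interval of -1.46 to 0.16 (limma adjusted p = 0.466), so neither no change nor a loss of over 2-fold lay outside it. Without GR WT replicate 3 it was -0.20, and without GR WT replicate 2 it was -1.02. Reads of Bcl2 can overlap an antisense gene, D630008O14Rik, over 558 bases.

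Bcl2l1 (NM_009743, chromosome 2), whose transcripts are spliced into a long survival form and a short death form that 1 value per gene does not separate, was at 187, 256, 178, 175 and 241 TPM in GR KO, against 143, 153 and 215 TPM in GR WT. The 3 lowest GR KO libraries lay between the second and the highest GR WT library. On the log2 scale the difference was 0.29 (95% interval -0.08 to 0.65, limma adjusted p = 0.481). Mcl1 (NM_008562, chromosome 3), which encodes a short-lived survival protein that T cells need, was at 275, 251, 215, 285 and 243 TPM in GR KO, against 249, 268 and 294 TPM in GR WT. Its ranges overlapped, with 2 GR KO libraries below all GR WT libraries and GR WT replicate 3 the highest, and the interval of the log2 difference, -0.33 to 0.14 around -0.09, was among the narrowest of the 10 (adjusted p = 0.749).

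Of the pore-forming genes, Bax (NM_007527, chromosome 7) was at 212, 195, 194, 166 and 194 TPM in Treg GR KO, against 193, 163 and 170 TPM in Treg GR WT. Of the 5 GR KO libraries, 4 were above all GR WT libraries, and the fourth replicate lay between GR WT replicates 2 and 3. The log2 difference was 0.13 (95% interval -0.09 to 0.36, limma adjusted p = 0.591). Bak1 (NM_007523, chromosome 17) was at 24, 22, 23.7, 28.5 and 32.0 TPM in GR KO, against 25.6, 24.7 and 37.3 TPM in GR WT, overlapping throughout. Its log2 difference of -0.15 (95% interval -0.52 to 0.23, adjusted p = 0.751) was 0.04 without GR WT replicate 3.

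The BH3-only genes tied to glucocorticoid death lay on opposite sides of 0. Bcl2l11 (NM_207680, chromosome 2), whose start window is printed above, was at 13.9, 9.93, 12.6, 16.8 and 11.7 TPM in Treg GR KO, against 12, 20.8 and 17.6 TPM in Treg GR WT. All GR KO libraries were below GR WT replicates 2 and 3, and 3 of them were above GR WT replicate 1. Its log2 difference was -0.33 (SE 0.20, 95% interval -0.78 to 0.11, limma adjusted p = 0.498). Bbc3 (NM_133234, chromosome 7), the other gene with a FOXO match, was at 19.6, 21.4, 17.4, 14.9 and 17.8 TPM in GR KO, against 10.1, 13.4 and 17.2 TPM in GR WT. There were 4 GR KO libraries above every GR WT library and the fourth replicate was below GR WT replicate 3. Its log2 difference of 0.42 (SE 0.18, 95% interval 0.02 to 0.82) had the smallest p of the 10 genes, with a limma adjusted p of 0.33 and an exact two-sided permutation p of 0.0536, where 0.0179 is the smallest that 56 assignments of 8 libraries allow.

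NOXA's gene, Pmaip1 (NM_021451, chromosome 18), a partner of MCL1, was at 111, 87.8, 97.1, 127 and 85.2 TPM in Treg GR KO, against 121, 127 and 125 TPM in Treg GR WT. The GR WT libraries were tightly grouped at the top, 4 GR KO libraries were below them, and the fourth GR KO replicate was level with the highest. The log2 difference was -0.30 (95% interval -0.59 to -0.01, limma adjusted p = 0.34, exact permutation p = 0.107). Bid (NM_007544, chromosome 6), which caspase 8 cuts to link death receptors to mitochondria, ranged from 24.4 to 33.8 TPM in GR KO and from 22.1 to 26.7 TPM in GR WT, with a log2 difference of 0.16 (95% interval -0.13 to 0.45, limma adjusted p = 0.626). Bmf (NM_138313, chromosome 2), whose protein is released from the cytoskeleton when cells detach, ranged from 2.55 to 6.74 TPM in GR KO and from 4.26 to 5.27 TPM in GR WT, and its log2 difference was -0.05 (limma adjusted p = 0.956). The GR KO libraries spread more widely than the GR WT libraries for both of these genes.

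The 95% intervals show what size of change the Treg libraries could have missed. For 9 of the 10 genes the interval of log2(TPM + 1) lay within a 2-fold change in either direction, Bcl2 being the exception. For 4 it lay within a 1.5-fold change. Differences over 2-fold of the 9 genes other than Bcl2, at the level of whole-gene RNA, lie outside the intervals of this comparison on that scale.

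**Figure D2:**
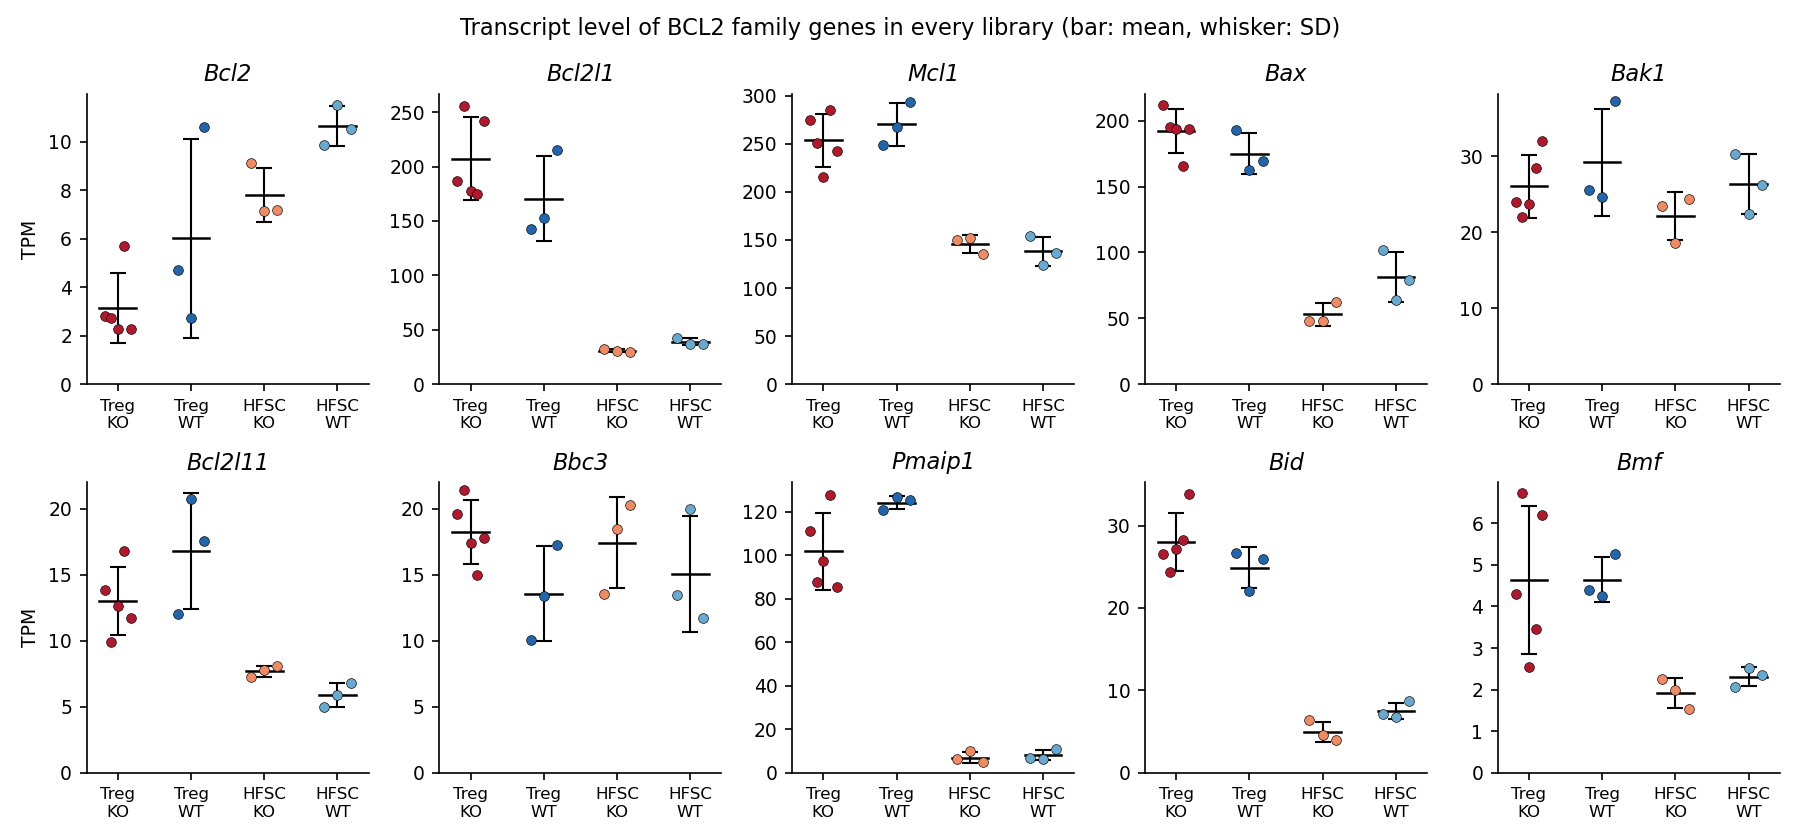
TPM of each of the 10 genes in every library, 1 panel a gene, with GR KO left of GR WT for Treg cells and then for HFSC, points for libraries, bars for means and whiskers for the SD. In Treg cells the groups overlap for all 10 genes, and in HFSC they do not overlap for Bcl2, Bcl2l1, Bax, Bid and Bcl2l11.

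HFSC of the same genotypes, 4 days after depilation, formed the second comparison. Again 0 of the 10 genes had a limma adjusted p under 0.05 (adjusted over 12493 genes), where 0.176% of all genes did (0.144% higher, 0.032% lower). In limma voom it was 0 of 10, where 483 of all 12493 genes passed. The unadjusted limma p was under 0.05 for 4 of 10, Bcl2, Bcl2l1, Bax and Bid, all lower in GR KO, against a background of 16.6% in either direction and 8.8% lower in GR KO (7.8% higher). The GR KO and GR WT libraries did not overlap for 5 of 10, where 23.5% of all genes did not overlap. In 4 of these (Bcl2, Bcl2l1, Bax and Bid) the GR KO libraries were below, against 12.8% of all genes, and in Bcl2l11 they were above, against 10.7%. The median log2 difference was -0.23 over the 10 genes and -0.02 over all genes tested. With 3 libraries against 3, the exact permutation test cannot give a p below 0.1.

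Both Bcl2 and Bcl2l1, at the level of the whole gene, were lower in every HFSC GR KO library than in any HFSC GR WT library. Bcl2 was at 9.11, 7.12 and 7.18 TPM in GR KO, against 9.87, 11.5 and 10.5 TPM in GR WT, with the first GR KO replicate close to the first GR WT replicate. On the log2 scale the difference was -0.41 (SE 0.18, 95% interval -0.81 to 0.00, limma adjusted p = 0.301), and without GR WT replicate 1 it was -0.45 (adjusted p = 0.239). Bcl2l1 was at 32.3, 30.3 and 30.1 TPM in GR KO, against 42.6, 37.1 and 36.9 TPM in GR WT. The GR KO libraries lay close together, below a wider GR WT group. The log2 difference was -0.32 (SE 0.12, 95% interval -0.59 to -0.05, limma adjusted p = 0.234), and -0.25 without GR WT replicate 1 (adjusted p = 0.248). Mcl1, at 150, 152 and 135 TPM in GR KO and 154, 124 and 137 TPM in GR WT, overlapped, with a log2 difference of 0.08 (95% interval -0.18 to 0.34, limma adjusted p = 0.755).

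The pore gene Bax had the smallest p of the 10 genes in HFSC. It was at 48.3, 47.9 and 62.7 TPM in GR KO, against 102, 64.0 and 78.9 TPM in GR WT. All GR KO libraries were below all GR WT libraries, but the third GR KO and the second GR WT replicate were nearly level, and GR WT replicate 1 was the highest. Its log2 difference was -0.60 (SE 0.18, 95% interval -1.02 to -0.18, limma adjusted p = 0.172, exact permutation p = 0.1). Without GR WT replicate 1 it was -0.43 (adjusted p = 0.21). Bak1 was at 23.5, 18.5 and 24.4 TPM in GR KO and 30.3, 22.4 and 26.2 TPM in GR WT, overlapping, with a log2 difference of -0.24 (95% interval -0.62 to 0.14, limma adjusted p = 0.508). Bax shares 192 bases with Gm45808 on its own strand and Bak1 shares 256 bases with Ggnbp1 on the other, so some of their tags may be counted for either gene.

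BIM's gene was the only member whose HFSC GR KO libraries all lay above the GR WT libraries. Bcl2l11 was at 7.24, 7.80 and 8.07 TPM in GR KO, against 4.98, 5.86 and 6.80 TPM in GR WT, from 73 to 191 tags a library. The GR KO libraries were tightly grouped, and the shallow GR WT replicate 1 was the lowest. The log2 difference was 0.35 (SE 0.19, 95% interval -0.10 to 0.79, limma adjusted p = 0.414, exact permutation p = 0.1), and 0.25 without GR WT replicate 1 (adjusted p = 0.485). Bid was at 6.37, 4.58 and 4.03 TPM in GR KO, against 7.11, 6.75 and 8.66 TPM in GR WT, on 34 to 72 tags a library. Its log2 difference was -0.52 (SE 0.23, 95% interval -1.04 to 0.00, limma adjusted p = 0.3), and -0.55 without GR WT replicate 1 (adjusted p = 0.284). The first GR KO replicate was again the one nearest to the GR WT group.

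For the remaining BH3-only genes, HFSC values overlapped between genotypes. Bbc3 was at 13.6, 18.4 and 20.3 TPM in GR KO, against 13.4, 20 and 11.7 TPM in GR WT (log2 difference 0.21, 95% interval -0.31 to 0.74, limma adjusted p = 0.682). Pmaip1 was at 6.15, 9.92 and 4.88 TPM in GR KO, against 7, 6.52 and 10.9 TPM in GR WT (log2 difference -0.21, 95% interval -0.87 to 0.45, adjusted p = 0.754). Bmf, with 28 to 48 tags a library the least counted of the 10 genes, was at 2.25, 1.99 and 1.54 TPM in GR KO, against 2.08, 2.52 and 2.35 TPM in GR WT (log2 difference -0.18, limma adjusted p = 0.783). On the log2(TPM + 1) scale, the 95% interval excluded a 2-fold change for 8 of the 10 genes in HFSC and a 1.5-fold change for 1. With a pseudocount of 0.1 the interval of Bmf was -1.19 to 0.66, which did not exclude a 2-fold loss.

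**Figure D3:**
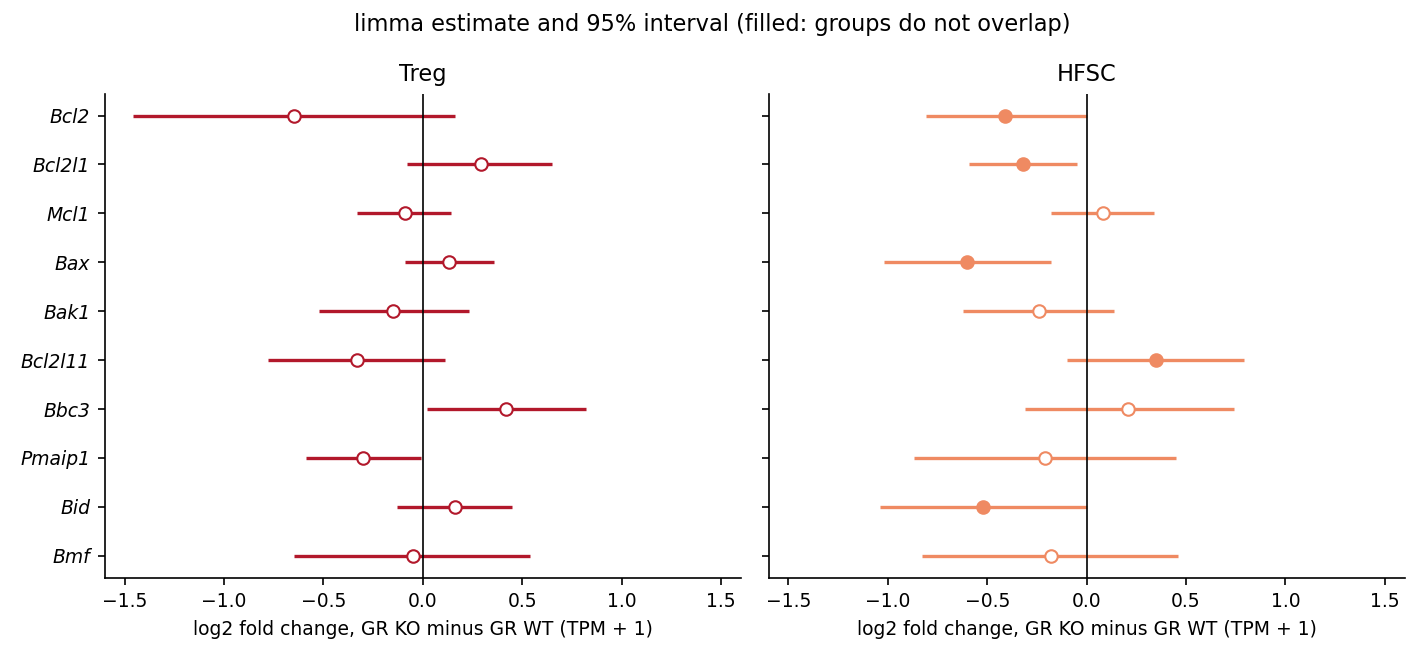
Log2 difference of log2(TPM + 1), GR KO minus GR WT, for each of the 10 genes with its 95% interval, in Treg cells and in HFSC. In Treg cells the intervals of Bbc3 (0.02 to 0.82) and Pmaip1 (-0.59 to -0.01) do not cross 0, and in HFSC those of Bax and Bcl2l1 lie below 0 and those of Bcl2 and Bid end at 0.00, while no gene passes after adjustment over all genes.

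Ratios of a death to a survival transcript within a library show how the members vary against each other. They are descriptions, with no test. Bcl2l11 over Bcl2 was 0.795, 1.09 and 1.12 in HFSC GR KO libraries, against 0.505, 0.51 and 0.646 in HFSC GR WT libraries. These groups did not overlap, both of its genes having libraries that did not overlap, in opposite directions. In Treg cells the same ratio was 4.89, 3.64, 5.56, 2.95 and 5.16 in GR KO, against 2.56, 7.63 and 1.66 in GR WT, so the GR WT libraries spanned all GR KO libraries. Bax over Bcl2 ranged from 29.1 to 85.3 (median 74.9) in Treg GR KO and from 16.0 to 59.7 (median 41.0) in Treg GR WT, and from 5.31 to 8.73 in HFSC GR KO and from 5.57 to 10.3 in HFSC GR WT. Bbc3 over Bcl2l1 overlapped between genotypes in both cell types, at 0.0735 to 0.105 in Treg GR KO, 0.0704 to 0.0875 in Treg GR WT, 0.419 to 0.673 in HFSC GR KO and 0.315 to 0.539 in HFSC GR WT. Bcl2l11 over Mcl1 lay between 0.0324 and 0.0776 in all 14 libraries.

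**Figure D4:**
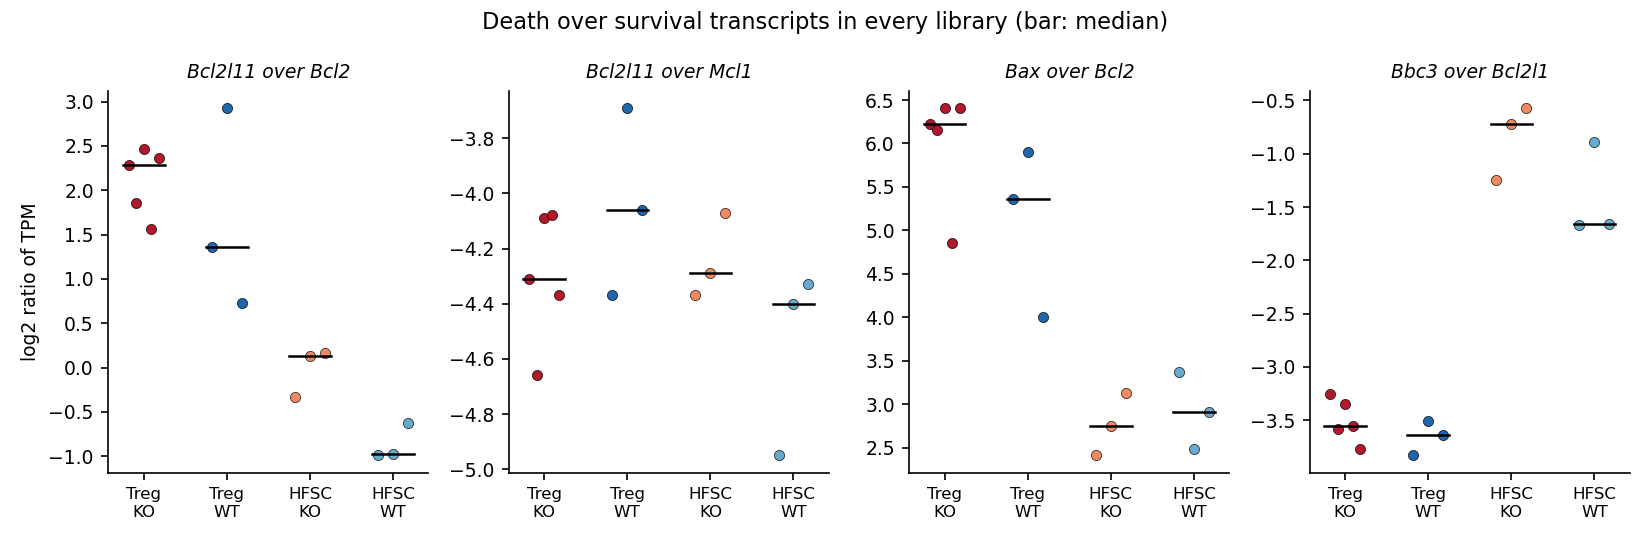
Log2 ratio of TPM of a death gene over a survival gene in every library, 1 panel a ratio, with GR KO left of GR WT in each cell type and bars at the medians. Bcl2l11 over Bcl2 is the only one of the 4 ratios with no overlap between HFSC GR KO (log2 ratio -0.33 to 0.17) and HFSC GR WT (log2 ratio -0.99 to -0.63).

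The other genes of the pathway were taken as 9 lists with 69 genes. In Treg cells 63 were tested, of which 12 had an unadjusted limma p under 0.05 (5 higher, 7 lower), beside 14.1% of all genes (5.15% higher, 8.93% lower). After adjustment 0 were higher and 2 were lower in GR KO (backgrounds 0.199% and 1.31%), both in the list of 8 cytokine receptor and signalling genes that sustain BCL2 and MCL1. Il7r, the interleukin 7 receptor, fell to 258 ± 13.7 TPM in GR KO (SD, n = 5), against 545 ± 107 TPM in GR WT (n = 3; log2 difference -1.06, limma adjusted p = 0.00214). Il2ra, the interleukin 2 receptor alpha chain and itself one of the Treg identity markers, fell to 330 ± 11 TPM in GR KO (n = 5), against 485 ± 33.4 TPM in GR WT (n = 3; log2 difference -0.55, limma adjusted p = 0.00575, and 0.116 with replicate number as a block). For both genes all GR KO libraries were below all GR WT libraries, as for 5.1% of all genes. Their signalling partners did not pass: the log2 difference was -0.12 for Il2rb, -0.22 for Il2rg, -0.06 for Jak1, -0.22 for Jak3 and 0.01 for Stat5a and Stat5b. Myeloid and keratinocyte markers moved with genotype in the same libraries, as given above.

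The remaining Treg lists had 0 genes past the test, and each is given by its gene with the smallest p. Of the survival relatives of the BCL2A1 (A1) type, which lymphoid and myeloid cells use, Bcl2a1b was at 932 ± 102 TPM in GR KO (n = 5) and 718 ± 122 TPM in GR WT (n = 3). Its GR KO libraries lay wholly above, as for 3.42% of all genes (log2 difference 0.38, limma adjusted p = 0.205). Bcl2a1d was at 222 ± 31.4 TPM in GR KO and 163 ± 28.3 TPM in GR WT (log2 difference 0.44, adjusted p = 0.188). Bcl2a1a, also of the A1 type, went the other way, at 0.968 ± 0.279 TPM in GR KO and 2.42 ± 1.62 TPM in GR WT. Its libraries overlapped (log2 difference -0.67, limma adjusted p = 0.441). Bcl2l2 of the same list was at -0.29 on the log2 scale (limma adjusted p = 0.584). The A1 genes are near-identical copies, so how tags divide among them is uncertain. Among the other death genes of the family Bcl2l15 was at -0.58 on the log2 scale (adjusted p = 0.329), among pore and apoptosome genes Apaf1, the caspase 9 platform, at -0.31 (adjusted p = 0.33), and among caspases and substrates Dffa, the inhibitor of the apoptotic nuclease, at 0.56 (adjusted p = 0.14). Birc3, an inhibitor of apoptosis, had a log2 difference of -0.23 (adjusted p = 0.303), Tradd, the TNF receptor adaptor, 0.41 (0.247), Myc -0.70 (0.0943), and Huwe1, a ubiquitin ligase of MCL1, -0.68 (0.247). List medians ran from -0.17 (inhibitors of apoptosis, cytokine receptors) to 0.10 (caspases), beside -0.04 for all genes.

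In HFSC 56 genes of the lists were tested and 0 passed (background 0.176%), with 9 at an unadjusted limma p under 0.05 (2 higher, 7 lower, background 16.6%). In limma with sample weights 4 were past the threshold, where 584 of all 12493 genes were. In limma voom on recovered tags 4 were, where 483 of all 12493 genes were. Birc5, which encodes survivin and is made in dividing cells, was at 56 ± 14.3 TPM in GR KO and 106 ± 26 TPM in GR WT (SD, n = 3 each; log2 difference -0.91, limma adjusted p = 0.117). Casp6, an executioner caspase, was at 19.1 ± 3.32 TPM in GR KO and 28.7 ± 1.73 TPM in GR WT (log2 difference -0.58, adjusted p = 0.141). In GR KO the libraries of Birc5 and Casp6 lay wholly below, as for 12.8% of all genes. Of the genes named next, Fbxw7, Trp53, Bcl2l12 and Htra2 also lay wholly below, and Myc lay wholly above, as for 10.7%. The transcription factor Myc was at 121 ± 14.5 TPM in GR KO and 80.6 ± 4.27 TPM in GR WT (log2 difference 0.58, limma adjusted p = 0.0776), and Fbxw7, which marks MCL1 and MYC for degradation, at 14.3 ± 0.769 TPM in GR KO and 20.3 ± 1.32 TPM in GR WT (-0.48, adjusted p = 0.149). Trp53, the regulator of Bax, Bbc3 and Pmaip1, named after its values were seen, was at 99.9 ± 4.62 TPM in GR KO and 142 ± 22.1 TPM in GR WT (-0.49, adjusted p = 0.128). Its limma adjusted p was 0.0636 without GR WT replicate 1 and 0.236 to 0.363 leaving out any other library. The genes with the smallest p in the other lists were Bcl2l12 (log2 difference -0.69, adjusted p = 0.153), Htra2 (-0.46, 0.273), Cflar (0.28, 0.41), Jak3 (0.39, 0.497) and Bcl2l2, the only survival relative above the filter (0.01, 0.98). Sebocyte and bulge marker sums differed between the same groups, as given above.

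**Figure D5:**
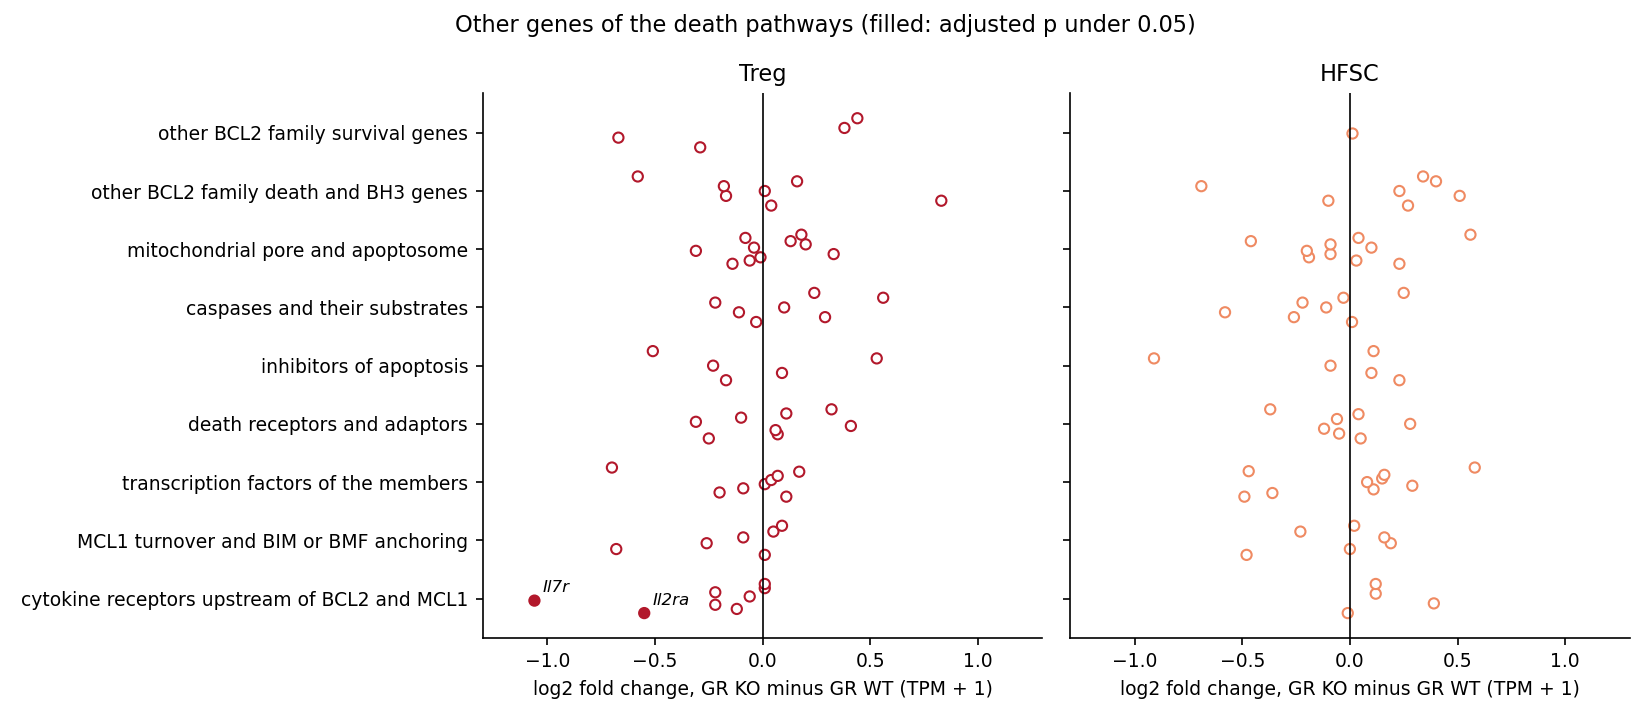
Log2 difference, GR KO minus GR WT, of every tested gene of the 9 pathway lists in Treg cells and in HFSC, with the genes past a limma adjusted p of 0.05 filled. Il7r (-1.06) and Il2ra (-0.55) are the filled points in Treg cells, and none is filled in HFSC.

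The genes whose levels followed selected members most closely were found by Pearson's r of log2(TPM + 1) within a table, over protein-coding genes that averaged 5 TPM or more. The r values are descriptions over few libraries that share depth and cell composition, the highest among all genes searched. Over the 8 Treg libraries and 7988 genes, Bcl2 was followed by Rps6kb1 (r = 0.976), Col23a1 (0.974) and Rbbp9 (0.962), Bcl2l11 by Cmah (0.956), Edrf1 (0.945) and Bcl3 (0.943), and Bbc3 by Hnrnpa0 (0.99) and Dnajb5 (0.958). Over the 6 HFSC libraries and 9599 genes, Bcl2 was followed by Cpsf2 (0.998), Smim3 (0.995) and Cntrob (0.995), Bcl2l11 by Agmo, Rab14 and Stt3b (0.994 each), and Bax by Atp6v1g1 (0.994), Tubg1 (0.99) and Fkbp4 (0.99). For Bcl2 and Bcl2l11, the members searched in both cell types, the 3 closest genes in Treg cells and in HFSC had no gene in common. Lists of 3 among 7988 and 9599 genes leave little room for a shared gene, so no difference between cell types is read from this.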

How the data were processed

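The authors deposited 1 table per cell type that gives, per the file headers, TPM per library for 1 RefSeq transcript a gene, with its length. HOMER, STAR, FastQC and Trim Galore, with the build mm10, appear in the submitters' processing notes, whereas their versions and settings, and whether counting used strand, were not given in the sources used here. The kit was strand-specific (TruSeq Stranded mRNA), per the labels' protocols. TPM times length gave whole tags (within 0.1) for at least 99.98% of low values tested, and these gave the depths and a voom fit. Of the nonzero tag numbers in a library, 59.9 to 65.6% were even. Whether each tag is an independent read was not tested, so depths, tag numbers and floors may overstate what was counted. For floors, 3 tags were taken. HFSC columns carried an unexplained prefix and were assigned through cell type, genotype and number.

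In each table, genes averaging 1 TPM or more entered a fit with limma 3.58.1 (R 4.3.3) on log2(TPM + 1), trended prior, two-sided, Benjamini-Hochberg over all genes at 0.05, after a run on simulated data. Exact permutation tests used mean log2 values. Labels do not say that replicates are separate mice, and a p-value then reflects only how far these samples spread, which may be technical. Named are all members, list genes past the threshold, the smallest p per list and table, and the 3 closest genes for Bcl2, Bcl2l11 and the member with the smallest p, of which 1 is not reported here. The members and lists were chosen with earlier results of these data known. Trp53, Bcl2a1b, Bcl2a1a, Bcl2l2 in Treg cells, the partners of Il7r and Il2ra and the 5 motifs were chosen after values were seen. Overlapping genes were read from GENCODE M21 (GRCm38). Alternatives changed pseudocount (0.1, 5), filter (none, 5 TPM), scaling, prior, weights, block and libraries.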

Additional observations from a re-analysis of the deposited data

Results flagged for a closer look

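Bcl2 in the fourth Treg GR KO replicate was at 5.70 TPM, against 2.27 to 2.83 TPM in the other 4 GR KO libraries. Its gap to the nearest of them was 0.837 of the group's range, above Dixon's 95% critical value of 0.71 for 5 samples. Of 29 genes examined in the Treg GR KO group it was the 1 such value, and chance alone gives such a value in about 1 of 20 groups.

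Myc differed in opposite directions in the 2 cell types. The log2 difference, GR KO minus GR WT, was -0.70 in Treg cells, where all 5 GR KO libraries were below all 3 GR WT libraries, and 0.58 in HFSC, where all 3 GR KO libraries were above all 3 GR WT libraries. Of all genes tested, 5.1% lay wholly below in Treg cells and 10.7% wholly above in HFSC. The limma adjusted p was 0.0943 in Treg cells and 0.0776 in HFSC, and the difference between the cell types was not tested, since the tables were normalised separately.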

How the results depend on the processing

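No member passed the test under any alternative, the lowest limma adjusted p being 0.134 in Treg cells (Pmaip1 without GR KO replicate 4) and 0.0785 in HFSC (Bcl2, voom). Of the members' values under the alternatives, 172 of 178 in Treg cells and 159 of 159 in HFSC kept their direction and their side of the threshold. The 6 that reversed were of Bak1 (leaving out 1 library, -0.25 to 0.04, the highest without GR WT replicate 3) and of Bmf (0.12 with quantile normalisation, 0.04 with sample weights, and -0.18 to 0.10 leaving out 1 library). With a filter of 5 TPM, Bmf had no value in either table and Bcl2 none in Treg cells. Bcl2l2 in HFSC, at 0.01, was -0.01 with sample weights, -0.06 with voom and -0.07 to 0.13 leaving out 1 library. The cause was not tested for these or for the changes below.

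Over all genes, 175 passed in Treg cells (23 higher, 152 lower), 78 with the replicate block and 84 to 186 leaving out 1 library, the fewest without GR WT replicate 3 and 107 without GR WT replicate 1. In HFSC 22 passed, against 2 without a filter, 48 at 5 TPM, 69 with median ratio scaling, 53 with quantile normalisation, 51 with the robust prior, 584 with sample weights, 483 with voom, 66 with the replicate block and 0 to 5 leaving out any 1 library, with 0 without GR KO replicate 3 and 2 without GR WT replicate 1. List genes past the threshold were 2 in Treg cells, 1 with the replicate block (Il7r) and 2 leaving out any 1 library. In HFSC they were 0, against 4 with sample weights (Bnip3, Bcl2l12, Trp53, Myc), 4 with voom (Birc5, Trp53, Myc, Fbxw7), 1 with the replicate block (Birc5) and 0 leaving out any 1 library. Dffa in Treg cells passed with quantile normalisation (0.68, adjusted p = 0.0434).

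Pairing by replicate number was not clear from the values, which cannot exclude it either. Same-numbered deviations correlated at 0.17, 0.087 and -0.117 in Treg cells and 0.016, 0.062 and -0.042 in HFSC. Treg GR KO replicates 1 and 2 and HFSC GR KO replicate 2 correlated best with their own number, and the other GR KO replicates compared did not. GR KO replicates 4 and 5 formed blocks of their own.

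There were 7 members that stayed higher in all Treg than in all HFSC libraries under median ratio scaling over 14 libraries, while the log2 ratio of Bbc3 became 0.32. For all genes this count was not made. In HFSC, tags per library limit Bmf (28 to 48) and Bid (34 to 72) most; their floors of 3 tags cover counting error only.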

Other observations

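Several genes of the pathway lists outside the 10 members differed widely in level between the cell types, chosen after their values were seen and given without a test, since the tables were normalised separately. The death receptor gene Fas was at 181 ± 38 TPM in Treg GR WT and 7.76 ± 0.924 TPM in HFSC GR WT libraries (SD, n = 3 each). Casp8, the caspase that death receptors activate, was at 102 ± 9.58 TPM in Treg GR WT and 20 ± 3.77 TPM in HFSC GR WT, and the inhibitor Birc3 at 313 ± 24.6 TPM in Treg GR WT and 12.3 ± 2.49 TPM in HFSC GR WT. The TNF receptor gene Tnfrsf1a ran the other way, at 18.6 ± 2.67 TPM in Treg GR WT and 231 ± 7.44 TPM in HFSC GR WT, as did Bok, a pore-forming relative of BAX and BAK, at 0.73 ± 0.559 TPM in Treg GR WT and 39.0 ± 5.39 TPM in HFSC GR WT. Among survival genes, Bcl2a1b was at 718 ± 122 TPM in Treg GR WT and was listed at 0 in all 3 HFSC GR WT libraries, and Bcl2l2, which encodes BCL-w, was at 6.74 ± 2.08 TPM in Treg GR WT and 27.4 ± 4.37 TPM in HFSC GR WT.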
